A study of Mus musculus with 8 samples.

Results

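The major histocompatibility complex (MHC) class I presentation genes were examined as 10 genes fixed by name: the classical heavy chains H2-K1 and H2-D1, their light chain B2m, the peptide supply genes Tap1, Tap2 and Tapbp, the immunoproteasome subunits Psmb8, Psmb9 and Psmb10, and the regulator Nlrc5. A probe was taken as a member's when its RefSeq accession mapped to that gene, which gave 12 probes for 10 of the 14774 genes with a tested probe. H2-K1 and Nlrc5 had 2 probes each, and the brighter represented the gene. The genes were chosen by name, not by a cut on measured values.

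Skin RNA from 8 C57BL/6N mouse samples was hybridised in 1 colour to whole-genome oligonucleotide arrays, on 1 slide. Mice carrying an edited Cchcr1, the gene for coiled-coil alpha-helical rod protein 1, gave 2 samples from patches of hair loss and 4 from normal skin. The remaining 2 samples were normal skin of wild type mice. The question was whether skin of Cchcr1 mutants that resembles alopecia areata, a patchy immune-mediated hair loss, differs from unaffected and wild type skin. Sample titles carry a number, Mutant097, Mutant113 or Wild001, and each mutant number has 1 hair loss sample and 2 normal skin samples with the letters A and B. Age and what the numbers and letters stand for are not given in the sources used here, so that p-values measure the spread between these samples, which may be technical. Both wild type samples carry 1 number.

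MHC class I molecules show peptides from inside the cell to CD8 T cells. The proteasome cuts cytosolic proteins, the TAP transporter moves the peptides into the endoplasmic reticulum, and tapasin holds the empty heavy chain and B2m beside the transporter until a peptide is bound. Interferon gamma raises the whole set, partly through Nlrc5 and Irf1, and replaces the 3 catalytic proteasome subunits by Psmb8, Psmb9 and Psmb10. The growing hair follicle bulb normally keeps class I low, which is known as immune privilege, and loss of that state is a recognised feature of alopecia areata.

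The upstream sequences of the class I genes are shown because the members' levels varied together between arrays. They come from RefSeq on build GRCm38.p6, where 8 of 10 members had a promoter window; Tap2 and Nlrc5 had none. In the following lines, capitals mark matches, on either strand, of a kappa B site and an interferon-stimulated response element, which were searched as motifs of 10 letters with 4 and 2 positions open, of TGACG, which is the core of the X2 box, and of CCAAT, read as ATTGG, which is the core of the Y box. H2-K1 is at chr17:34000354-34000463, minus strand, from base -130 to -21 of the listed start. H2-D1 is at chr17:35262918-35263027, plus strand, from -176 to -67. B2m is at chr2:122147555-122147643, plus strand, from -132 to -44.
H2-K1: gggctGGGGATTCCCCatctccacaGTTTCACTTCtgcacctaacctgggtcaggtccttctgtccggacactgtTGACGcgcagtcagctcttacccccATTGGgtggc
H2-D1: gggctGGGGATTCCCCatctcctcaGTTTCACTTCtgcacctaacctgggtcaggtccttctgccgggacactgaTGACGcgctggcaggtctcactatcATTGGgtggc
B2m: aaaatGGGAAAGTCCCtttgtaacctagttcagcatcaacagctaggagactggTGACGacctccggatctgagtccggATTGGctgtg

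The H2-K1 and H2-D1 stretches were identical at 99 of 110 bases, and all 4 motifs stood in the same order and at the same spacing. ATTGG began 25 bases after the start of TGACG in all 3 genes. The search over all promoters used the spacing and orientation of these genes, so their own match was fixed in advance. In that orientation alone, 18 of 32851 promoter windows (0.0548%) held it, with different starts of 1 gene counted separately. Another of those windows belonged to H2-M3, a class I gene outside the classical set. B2m differed by its kappa B site, 49 bases before TGACG against 70 in the heavy chains, and by holding no match to the interferon-stimulated response element in its window. Over windows of 250 bases upstream, the kappa B motif was in 3 of 8 members against 17.634% of all promoters. The searched form of the interferon-stimulated response element was in 2 of 8 against 1.449%. TGACG was in 5 of 8 against 17.765%, and CCAAT in 6 of 8 against 33.85%. The window of Psmb8 was the only one among members to hold TTCNNNGAA, the gamma-activated site, present in 7.02% of all promoters, and that of Psmb10 held none of these motifs. A match is a description of these letters, not a bound site.

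Psmb9 and Tap1 start back to back. The interval between their listed starts is 225 bases long, at chr17:34187331-34187555, shown on the plus strand with Psmb9 leaving to the left and Tap1 to the right, and with CCAAT and TGACG in capitals.
Psmb9-Tap1: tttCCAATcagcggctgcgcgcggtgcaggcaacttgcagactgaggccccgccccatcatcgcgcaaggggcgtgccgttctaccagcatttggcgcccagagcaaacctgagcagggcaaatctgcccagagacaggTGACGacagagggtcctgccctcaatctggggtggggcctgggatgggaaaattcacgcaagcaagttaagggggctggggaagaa

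On the same chromosome, Psmb9, Tap1, Psmb8 and Tap2 follow each other directly in the RefSeq order of protein-coding genes. In that order the class II genes H2-DMb1 and H2-Ob are at their sides. Tapbp, H2-K1 and H2-D1 are also on chromosome 17, Psmb10 and Nlrc5 are on chromosome 8, and B2m is on chromosome 2.

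**Figure D1:**
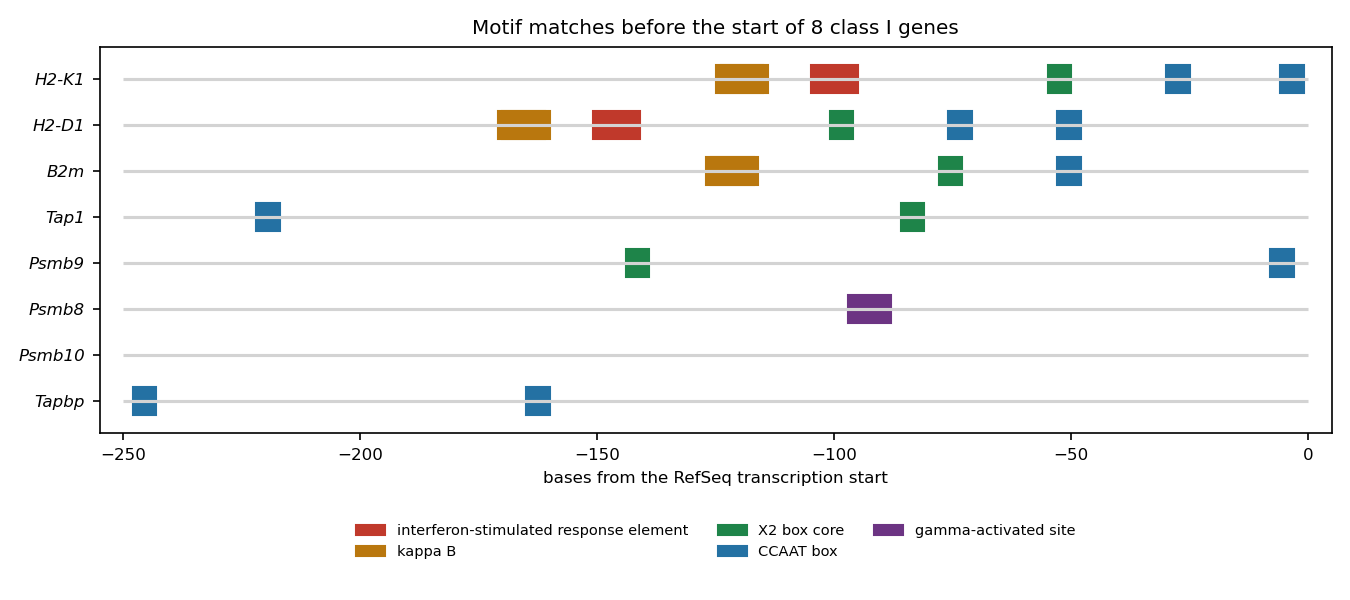
Positions of motif matches upstream of the 8 member genes with a promoter window, against distance from the listed start in bases; each coloured block is a match on either strand, TGACG being the X2 box core in the legend. H2-K1, H2-D1 and B2m share TGACG and ATTGG spaced by 25 bases, and Psmb10 has no block.

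Array quality set limits on all comparisons. The 75th percentile of intensity, used to scale each array, ran from 83.1 to 211 units, and 25424 to 30205 probes were well above background. No spot was saturated. Of 55603 probes, 30417 were well above background on at least 2 arrays and were tested. All 12 member probes were well above background on all 8 arrays. So were the keratinocyte gene Krt5 and the fibroblast gene Col1a1, markers of skin. Cchcr1 was detected on all 8 arrays as well, but where its probe lies relative to the edit was not examined, so its level does not check the edit. Xist was detected on the 3 Mutant113 arrays alone and the Y-linked Ddx3y on the others, so that sex cannot be told apart from the title number. Below, a level is the log2 processed signal minus the array's 75th percentile, a value of 0 lies at that percentile, and levels are compared between arrays of 1 probe, never between genes. RNA came from whole skin, in which fewer cells of a type and less RNA per cell cannot be told apart.

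No class I presentation gene passed the test between hair loss skin and normal skin of the mutants. With limma and Benjamini-Hochberg adjustment over 30417 probes, 0 of 10 members passed an adjusted p of 0.05, against 0% of all probes, and 0 of 10 had an unadjusted p under 0.05, which 1582 of all probes had. The differences ran from -0.02 for H2-D1 to 0.20 for H2-K1 on the log2 scale, with standard errors of 0.17 to 0.30, and all had an adjusted p of 0.999. Of the members, 9 of 10 lay above 0, by a median of 0.07, against 49.1% and a median of -0.01 over all probes. The 95% intervals reached from -0.70 for H2-D1 to 0.80 for Tap1, so that rises up to 1.74-fold were within the error. Hair loss arrays lay wholly above mutant normal skin in 0 of 10 members, against 5.73% of probes, and wholly below in 0 of 10, against 6.68%. This near-zero mean joined unlike arrays. Without the Mutant113 hair loss array the median was -0.22 and 0 of 10 members lay above 0, and without the Mutant097 hair loss array it was 0.41 and 10 of 10 did. Without Mutant097 normal skin B, 4 of 10 lay above 0.

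H2-K1 and H2-D1 encode the classical heavy chains that hold the peptide. The H2-K1 level in hair loss was 7.37 for Mutant097 and 7.81 for Mutant113. Unaffected mutant skin had levels of 7.12 and 7.55 for samples B and A of Mutant097, and of 7.45 and 7.45 for those of Mutant113. Wild type B and A had 7.16 and 7.69. The Mutant113 hair loss array was the highest of the 8, and the 3 groups overlapped. The mean excess of hair loss was 0.20 on the log2 scale, with a standard error of 0.23. A second H2-K1 probe differed by 0.43 (SE 0.22; limma adjusted p 0.990), and its hair loss levels, 6.28 for Mutant097 and 6.02 for Mutant113, were in the reverse order. The paralogous class I genes of the mouse are close in sequence, and cross-hybridisation among them was not tested.

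H2-D1 had levels of 5.70 and 6.52 in hair loss, again Mutant097 first. Mutant normal skin gave 5.83 and 6.58 for Mutant097, B before A, and 5.98 and 6.14 for Mutant113, and wild type gave 6.33 and 6.50. The lowest of the 8 values was the Mutant097 hair loss array, and the Mutant113 hair loss array was second to Mutant097 A. B2m, the invariant light chain without which heavy chains do not reach the surface, had 6.02 and 6.90 in hair loss, a 1.84-fold gap between 2 samples of 1 group. Its normal skin levels were 6.21 and 6.57 for Mutant097 and 6.50 and 6.42 for Mutant113, against 6.76 and 7.15 in wild type. The 4 mutant normal skin arrays thus lay below both wild type arrays, and the hair loss arrays stood on either side of them.

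Tap1 and Tap2 encode the subunits of the peptide transporter. Tap1 had levels of -0.91 and -0.08 in hair loss. Its normal skin values were -0.91, -0.42, -0.69 and -0.40, in the order Mutant097 B and A, then Mutant113 B and A, and its wild type values -0.85 and -0.26. The range was shared by all 3 groups, with the Mutant113 hair loss array at the top. Tap2 had 4.06 and 4.54 in hair loss, 3.82, 4.31, 4.32 and 4.36 in mutant normal skin in the same order, and 3.78 and 4.12 in wild type. It was the member whose wild type mean was lowest against the mutants, yet the groups overlapped. Tapbp, which encodes tapasin, had 3.29 and 3.41 in hair loss, 3.24, 3.60, 3.29 and 3.26 in mutant normal skin, against 3.70 and 3.83 in wild type. All 6 mutant arrays lay below both wild type arrays, and hair loss and mutant normal skin were superimposed, at means of 3.35 ± 0.08 (SD, n = 2) and 3.35 ± 0.17 (SD, n = 4).

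The immunoproteasome subunits alter which peptides are cut. Psmb8 had levels of 2.70 and 3.31 in hair loss, 2.77, 3.08, 2.77 and 2.90 in mutant normal skin, against 3.05 and 3.54 in wild type. Psmb9 had 2.72 and 3.48 in hair loss, 2.71, 3.06, 2.98 and 3.21 in mutant normal skin, against 2.95 and 3.29 in wild type. Psmb10 had 3.92 and 4.32 in hair loss, 3.87, 4.09, 4.13 and 4.21 in mutant normal skin, against 4.25 and 4.59 in wild type. In each of the 3 genes the Mutant113 hair loss array was above all 4 mutant normal skin arrays and the Mutant097 hair loss array was within or below them. Nlrc5, the transactivator of class I genes, had 2.33 and 2.99 in hair loss, 2.47, 2.83, 2.52 and 2.70 in mutant normal skin, against 2.37 and 2.97 in wild type. Its highest and lowest values were both in hair loss. A dimmer second Nlrc5 probe ran from -3.32 to -2.02 and was highest in wild type B.

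**Figure D2:**
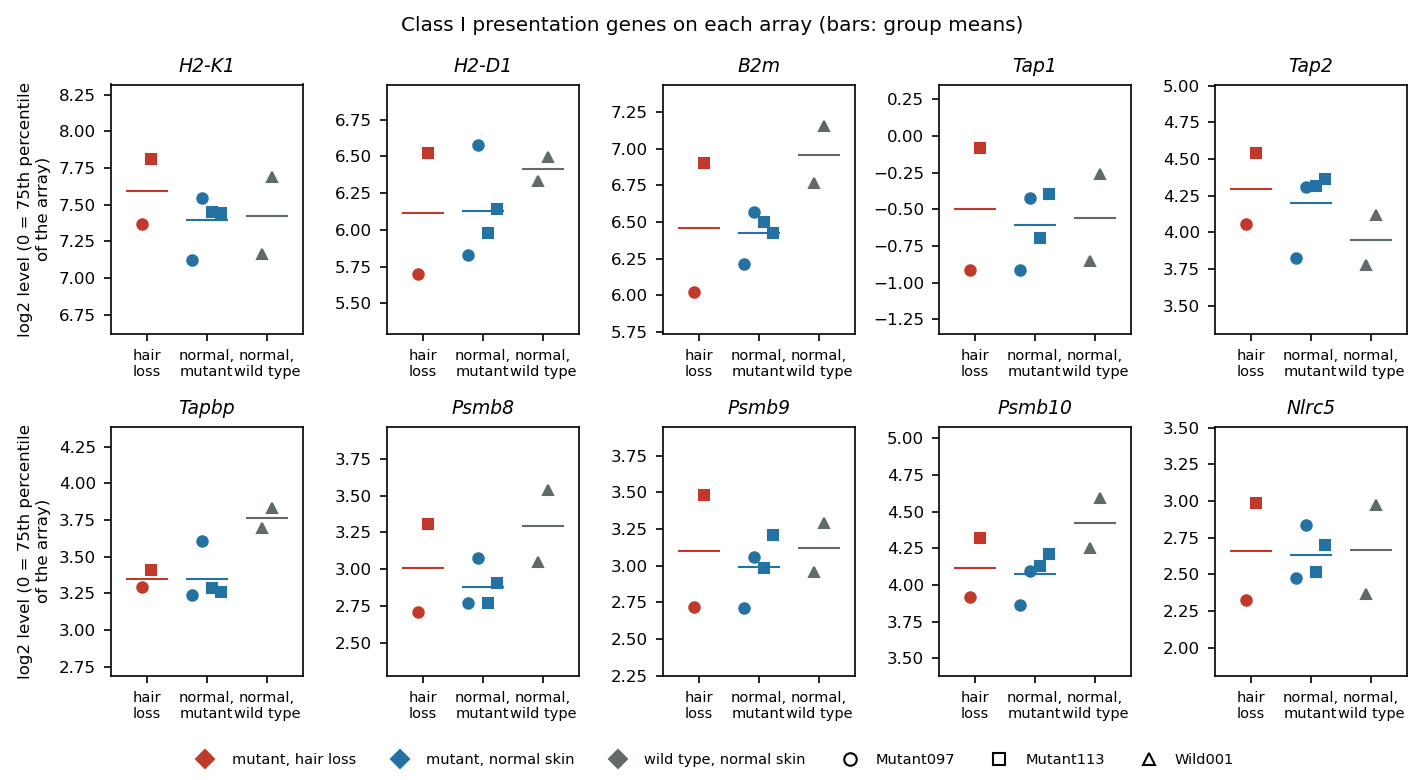
Log2 level of each member on the 8 arrays, one point per array, by group (mutant hair loss, n = 2; mutant normal skin, n = 4; wild type normal skin, n = 2). The hair loss points lie far apart for B2m, at 6.02 and 6.90, and close together for Tapbp, where both stay below the wild type points of 3.70 and 3.83.

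Compared with wild type, mutant normal skin had lower levels of most members, none past the threshold. In limma, 0 of 10 members passed against 0.694% of all probes, and 1 of 10, Tapbp, had an unadjusted p under 0.05. Differences were below 0 for 9 of 10, against 53.6% of probes, with a median of -0.21 against -0.04 over all probes. B2m differed by -0.53 (SE 0.27; adjusted p 0.356 in limma), Tapbp by -0.42 (SE 0.17; adjusted p 0.279), Psmb8 by -0.41, Psmb10 by -0.35 and H2-D1 by -0.29. H2-K1, Nlrc5, Tap1 and Psmb9 differed by -0.03 to -0.13, and Tap2 by 0.25. B2m, Tapbp and Psmb10 had all 4 mutant arrays below both wild type arrays, 3 of 10 members against 14.8% of probes; 0 of 10 had them above, against 13.6%. Scaling by array medians instead moved the median of all probes to 0.12 and put 5 of 10 members above 0. Leaving out wild type A also left 5 of 10 members above 0. Taken by title number, an addition made after the data were seen, 0 of 10 members passed in Mutant097 normal skin (0.999% of probes) and 0 of 10 in Mutant113 normal skin (3.26%). B2m was at -0.57 and -0.50 in these, Tapbp at -0.34 and -0.49 and Tap2 at 0.12 and 0.39; 1 of 10 had an unadjusted p under 0.05 in each, B2m and Tapbp in turn. Between the normal skin of Mutant113 and that of Mutant097, 0 of 10 members passed (0.266% of probes), with 0 of 10 at an unadjusted p under 0.05 and a median of 0.09.

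Hair loss skin against wild type gave 0 of 10 members past the threshold in limma, against 1.42% of all probes, and 0 of 10 with an unadjusted p under 0.05. Differences were below 0 for 7 of 10, against 54.2% of probes. The median was -0.15, with Tapbp at -0.41 (SE 0.20), B2m at -0.50 (SE 0.31), H2-K1 at 0.17 and Tap2 at 0.35. Tapbp alone had both hair loss arrays below both wild type arrays, 1 of 10 members against 28.5% of probes, and 0 of 10 had them above, against 24.8%. The median was 0.21 without the Mutant097 hair loss array and -0.44 without that of Mutant113. These differences share the wild type arrays with those of normal skin and are not separate evidence.

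**Figure D3:**
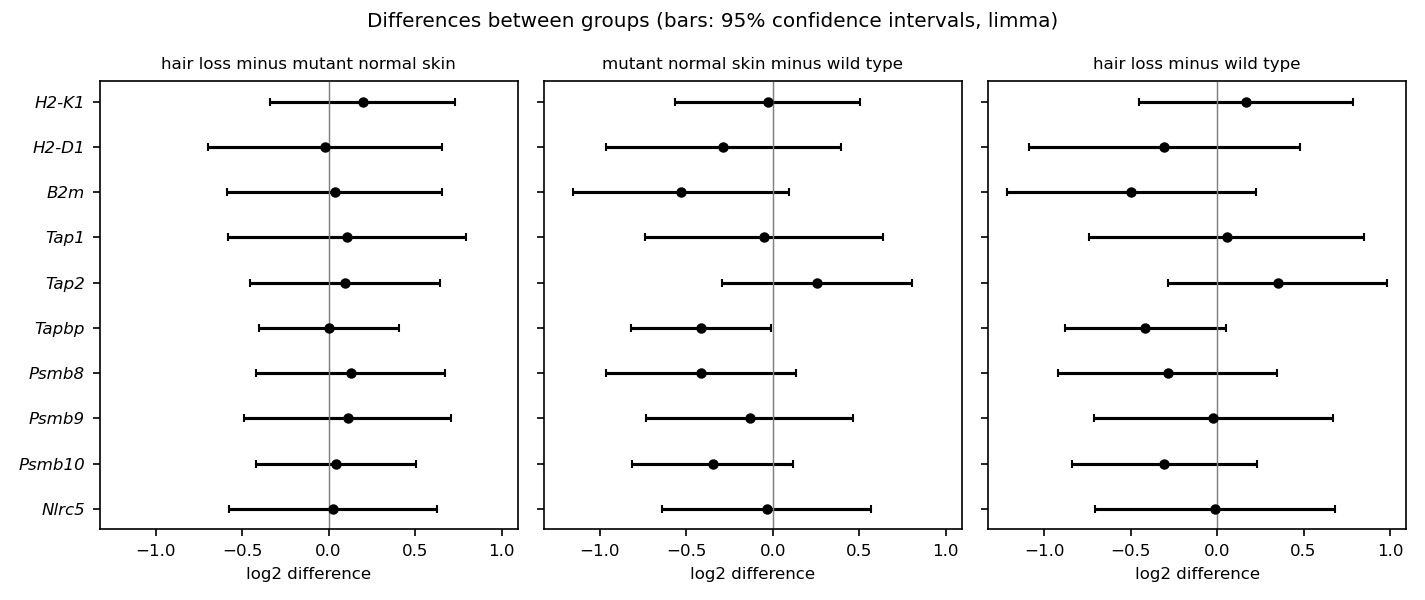
Differences in log2 level for the 10 members in the comparisons between groups, as points with 95% intervals from limma as bars. The points for hair loss minus mutant normal skin lie between -0.02 and 0.20, and most points for the mutant groups minus wild type lie below 0.

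Within title numbers, the hair loss array of Mutant113 stood above both of its normal skin arrays for all 10 members, that of Mutant097 stood below or between its own, and no member passed the test. In Mutant113 the hair loss array was above both normal skin arrays in 10 of 10 members, against 39.4% of probes, and below both in 0 of 10, against 33%. All 10 differences were above 0, against 54.4% of probes, and the median was 0.38, against 0.03 over all probes. It was largest for Psmb8 at 0.47, H2-D1 at 0.46, Tap1 at 0.46 and B2m at 0.44, followed by Psmb9 at 0.39, Nlrc5 at 0.38 and H2-K1 at 0.36. Tap2 at 0.20, Psmb10 at 0.15 and Tapbp at 0.14 differed least. In Mutant097 the hair loss array was below both normal skin arrays in 5 of 10 members, H2-D1, B2m, Tap1, Psmb8 and Nlrc5, against 40.6% of probes, and above both in 0 of 10, against 34.7%. The count of 5 is near the background share. For the other 5 members it lay between normal skin B and A. The second Nlrc5 probe, unlike the first, also lay between them, with a difference of 0.15 (SE 0.49). The second H2-K1 probe, unlike the first, lay above both, at 6.28 against 5.32 and 5.96. Its difference was 0.64 (SE 0.32), and these counts use the brighter probe alone. Differences were below 0 for 9 of 10, against 53.3% of probes, with a median of -0.19 against -0.03 over all probes, and reached -0.50 for H2-D1 (SE 0.35) and -0.37 for B2m (SE 0.27). Those 5 genes were thus below both in 1 number and above both in the other, against 17.4% of probes. Set directly against each other, the Mutant113 hair loss array exceeded that of Mutant097 in 10 of 10 members, against 48.4% of probes, from 1.08-fold for Tapbp to 1.84-fold for B2m.

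The tests within title numbers were as follows. In limma, 0 of 10 members passed within Mutant097, against 0.628% of probes, and 0 of 10 within Mutant113, against 0.00329%, with 0 of 10 at an unadjusted p under 0.05 in each. The difference between the numbers in the hair loss effect was above 0 for 10 of 10 members, against 53.1% of probes, with a median of 0.62 against 0.04. It was 0.96 for H2-D1 (SE 0.49; limma adjusted p 0.622) and 0.81 for B2m (SE 0.39; limma adjusted p 0.595). Here 0 of 10 members passed, against 0% of probes, and 0 of 10 had an unadjusted p under 0.05, which 2889 probes had. The second H2-K1 probe went against the first, at -0.42 against 0.33. Each number has 1 hair loss array, so its own spread is unmeasured and is taken in the model from the normal skin and wild type arrays. Without Mutant097 normal skin A, 5 of 10 members lay above 0 within Mutant097. The slide carried its arrays in 2 rows, with all Mutant097 arrays and the Mutant113 hair loss array in row 1 and the Mutant113 normal skin and wild type arrays in row 2. Row and hair loss thus cannot be told apart within Mutant113. Blocking on the slide row gave a median of 0.11 for the contrast of hair loss and mutant normal skin, with 8 of 10 members above 0. With the row fitted, both hair loss arrays are set against Mutant097 normal skin alone. The blocked contrast therefore cannot separate row from hair loss within Mutant113. The Mutant113 hair loss array had the highest intensity percentile, 211, and the most probes above background, 30205, and that of Mutant097 had 125 and the fewest, 25424; the part of this in the difference was not tested.

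**Figure D4:**
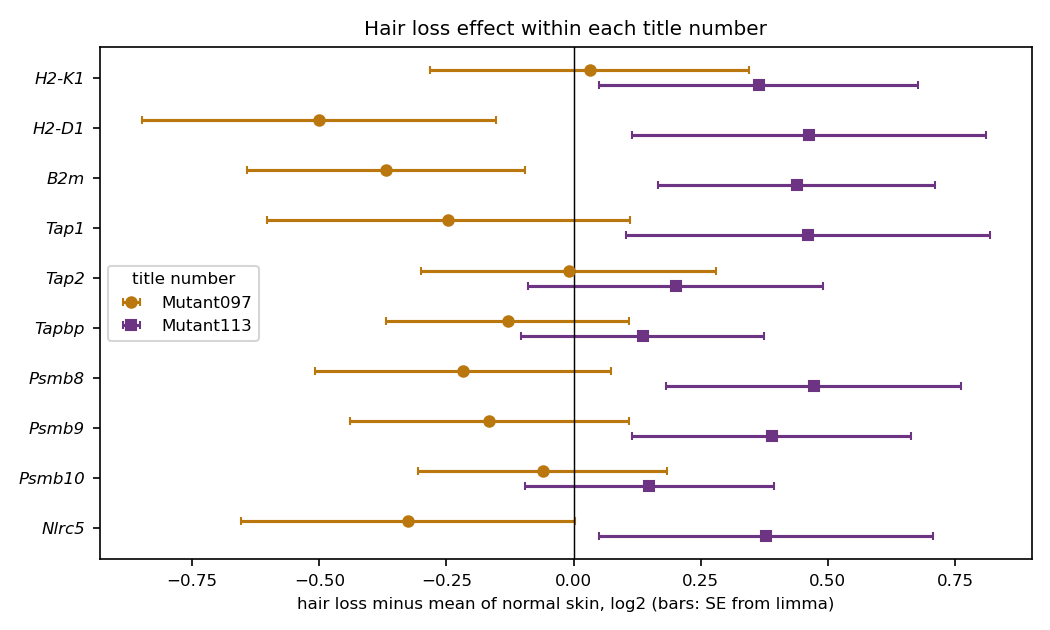
Hair loss minus the mean of the 2 normal skin arrays, in log2 units, for each member within Mutant097 and Mutant113, with standard errors from limma as bars. All 10 Mutant113 points lie above 0, from 0.14 to 0.47, and 9 of the 10 Mutant097 points lie below 0, down to -0.50.

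Normal skin also varied by sample letter. Sample A exceeded sample B in 10 of 10 members for Mutant097 (52.4% of probes), in 7 of 10 for Mutant113 (47.9%) and in 10 of 10 for wild type (50.6%). In all 3 sample sets at once it did so for 7 of 10 members against 12.2% of probes. The fitted difference was above 0 in 10 of 10, against 49.3% of probes, and ran from 0.16 for Tapbp to 0.46 for Tap1, with a median of 0.31. With limma, 0 of 10 members passed, against 0% of probes, and 1 of 10, Tap1, had an unadjusted p under 0.05. This comparison was added after the data were seen. That median stands beside medians of 0.38 and -0.19 for hair loss within Mutant113 and Mutant097.

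The members varied together. Each member was centred on its own mean over the 8 arrays, and the mean of the 10 was taken on each array. It was -0.30 in Mutant097 hair loss and -0.30 in Mutant097 normal skin B, where 0 of 10 members were above their own means. It was 0.30 in Mutant113 hair loss and 0.33 in wild type A, with 9 of 10 members above their means on each. The other arrays lay between, at 0.11 for Mutant097 A, -0.09 and 0.01 for Mutant113 B and A, and -0.06 for wild type B. The order of arrays crossed the groups, since each end held a hair loss array and a normal skin array.

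Over 45 pairs of members, the Pearson correlation across 8 arrays had a median of 0.78 and exceeded 0.8 in 14. It was highest for Psmb9 and Tap1, the divergent neighbours, at 0.96, for Tap1 and Nlrc5 at 0.96, and for B2m with Psmb10 and Psmb8 at 0.94. It was lowest for Tap2 and Tapbp at -0.19. The heavy chains H2-K1 and H2-D1, whose upstream stretches were nearly identical, had 0.62. H2-K1 and B2m had 0.60, and H2-D1 and B2m 0.85. Any part of the upstream sequences in these correlations was not tested. Against the mean of the other 9, Psmb9 reached 0.93, Tapbp 0.55 and Tap2 0.50. All points share the arrays and their scaling, and over all probes the correlation with the members' mean had a median of 0.01 and a 95th percentile of 0.70. Among 14592 genes outside the fixed lists, those nearest to the members' mean were Cd40 (0.992), Scimp (0.979), Pira2, Adgre5 (0.972), Trim30a (0.969), Casp1, Gbp4 (0.966), Stk24, Slc31a2 and Rab19 (0.961).

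The mean of genes known to respond to interferon varied with that of the members over the arrays, with a larger spread. Of 22 listed, 20 were tested, and their centred mean was -0.66 in Mutant097 hair loss and 0.53 in Mutant113 hair loss, and ran from -0.81 in Mutant097 B to 0.82 in wild type A. Its correlation with the members' mean over the 8 arrays was 0.94. Single genes ranged from 0.24 for Usp18 to 0.98 for Gbp3, with Isg15 at 0.42. Between the normal skin of Mutant113 and that of Mutant097 the lists differed. There the interferon list had a median of 0.61 with 18 of 20 above 0. The members had 0.09 and 6 of 10, and 45.4% of all probes were above 0. Gbp2, a guanylate-binding protein induced by interferon gamma, had 1.23 and 3.05 in hair loss, 1.08, 1.85, 2.19 and 2.14 in mutant normal skin, against 2.20 and 3.02 in wild type. The brightest others, Oas1a and Isg15, had hair loss levels of 2.00 and 2.72, and of 2.18 and 2.34. In limma, 0 of 20 passed in hair loss against normal skin (median 0.12, 13 above 0), with 0 at an unadjusted p under 0.05. Likewise 0 of 20 passed in normal skin against wild type (median -0.59, 2 above 0, 2 at an unadjusted p under 0.05). Within Mutant097 and Mutant113 the medians were -0.23 and 0.37, with 0 of 20 past the test in each and 2 and 0 at an unadjusted p under 0.05.

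Of the upstream factors, 12 of 13 class I transcription factors and 10 of 11 interferon and receptor genes were tested. In limma, 0 of 12 and 0 of 10 passed in hair loss against normal skin, with 0 at an unadjusted p under 0.05 in either list, and 0 of 12 and 0 of 10 in normal skin against wild type, with 2 and 0. The brightest factors were Rela, Nfyc and Irf1. Irf1, which binds the interferon-stimulated response element, had 2.89 and 3.76 in hair loss, 2.86, 3.23, 3.16 and 3.37 in mutant normal skin, against 3.64 and 4.06 in wild type. Its 4 mutant normal skin arrays were all below wild type, with a difference of -0.70 (SE 0.28; limma adjusted p 0.266). Ifng, interferon gamma itself, was well above background on 6 of 8 arrays, the others being Mutant097 hair loss and Mutant097 normal skin B. Ifngr1, Il15ra and Jak1 were the brightest of the interferon and receptor list.

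In some comparisons, the constitutive proteasome subunits moved in another direction than the immunoproteasome subunits that replace them. All 15 listed genes, core subunits and the activator subunit Psme3, were tested, and their mean correlated at -0.16 with that of the members. Psmb5, whose place Psmb8 takes in the immunoproteasome, had 7.02 and 6.65 in hair loss, with Mutant097 the higher, 6.69, 6.60, 6.69 and 6.49 in mutant normal skin, against 6.26 and 6.61 in wild type. Within Mutant097, Psmb5 differed by 0.37, Psmb6 by 0.30 and Psmb7 by 0.65, where Psmb8, Psmb9 and Psmb10 differed by -0.22, -0.17 and -0.06. Within Mutant113 both sets lay mostly above 0. There 14 of the 15 listed genes did so, by a median of 0.14, and Psmb8, Psmb9 and Psmb10 differed by 0.47, 0.39 and 0.15. Against wild type, normal skin of the mutants differed by 0.18, 0.18 and 0.15 for the constitutive subunits and by -0.41, -0.13 and -0.35 for their counterparts. Psmb4 was the other bright subunit. In hair loss against normal skin all 15 were above 0, by a median of 0.17, and 0 of 15 passed in limma or had an unadjusted p under 0.05. The activator and assembly genes, led by Psme2, Psme1 and Pomp, had a median of 0.22 there, with 0 of 4 past either threshold. The difference between immunoproteasome and constitutive subunits was not tested.

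The peptide-loading and trimming genes, led by Hspa5, Canx and Sec61a1, had a median of 0.10 in hair loss against normal skin, with 0 of 10 past the limma test or at an unadjusted p under 0.05. Of 25 nonclassical class I and class I-like heavy chains, 18 were tested. In limma, 0 of 18 passed in that comparison (median 0.13; 0 at an unadjusted p under 0.05), and 0 of 18 in normal skin against wild type, where 17 of 18 were below 0 with a median of -0.34 and 3 had an unadjusted p under 0.05. H2-Q4, H2-Q7 and H2-T23 were the brightest. The exception in direction was Cd1d1, which presents lipids to NKT cells, with 2.25 and 3.56 in hair loss, 2.52, 2.18, 3.17 and 2.81 in mutant normal skin, against 0.89 and 1.37 in wild type. Mutant arrays did not overlap wild type for Cd1d1. Normal skin of Mutant113 against wild type gave 2 calls in this list in limma, Cd1d1 at 1.86 (SE 0.26; adjusted p 0.028) and Fcgrt, the neonatal Fc receptor heavy chain, at -1.11 (SE 0.17; adjusted p 0.036), against 3.26% of all probes. In that comparison, added after the data were seen, 0 of 10 members passed. Among 7 tested immune privilege and stress ligand genes, led by Mif, Tgfb2 and Cd200, 0 passed in limma in hair loss against normal skin and 1 had an unadjusted p under 0.05, and Tgfb2 was called in Mutant113 normal skin against wild type, at -1.70 (SE 0.27; limma adjusted p 0.043). The mean of this list correlated at 0.93 with that of the members over the 8 arrays, with single genes from -0.09 for Mif and 0.00 for Tgfb2 to 0.86 for Cd274.

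**Figure D5:**
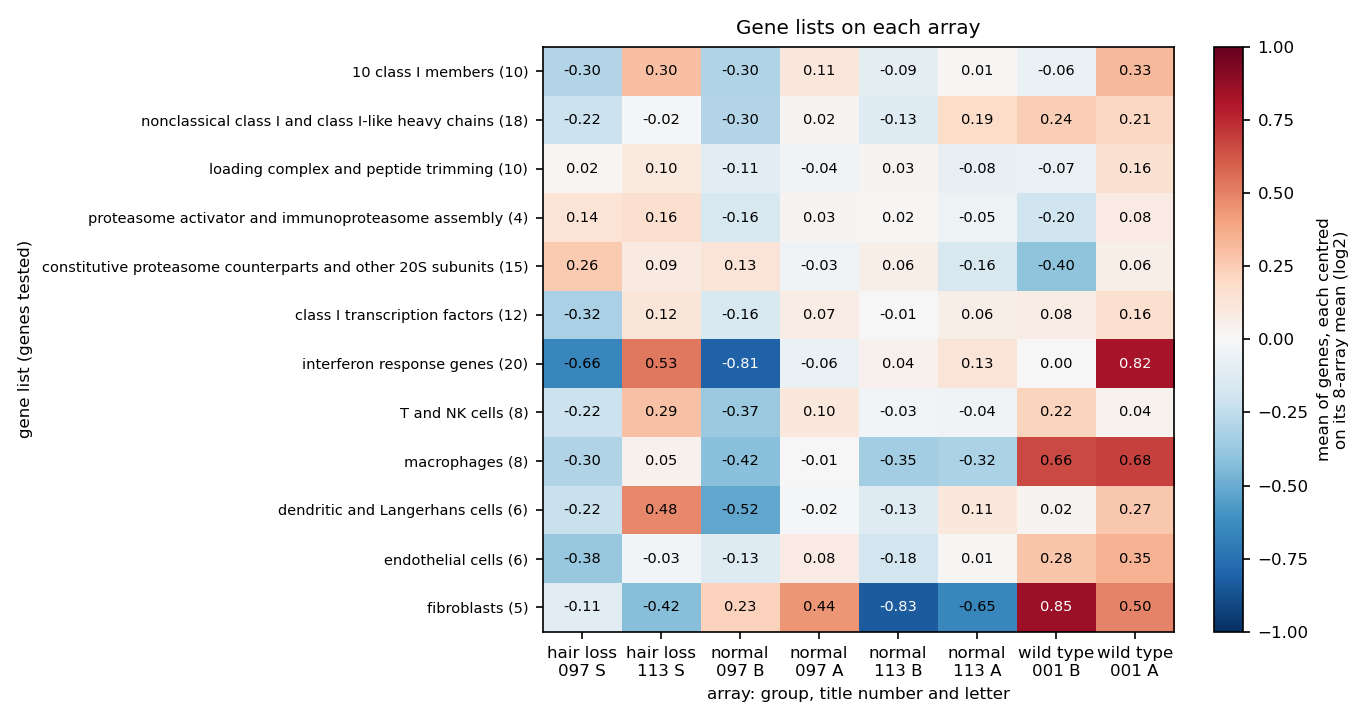
Mean centred log2 level of the members and of companion gene lists (lines) on each of the 8 arrays (columns), from blue for low to red for high. The members and the interferon response genes are low in Mutant097 hair loss and Mutant097 B and high in Mutant113 hair loss and wild type A, and the 20S list, which also holds the activator subunit Psme3, is not.

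Cell type markers were read on the same arrays. The coreceptor genes Cd8a and Cd8b1 and the cytotoxic genes Gzmb and Ncr1 were not well above background on 2 arrays or more, so that no CD8 T cell coreceptor was measurable. The 8 of 13 T and NK markers tested, led by Cd3e and Nkg7, had centred means of -0.22 and 0.29 in the hair loss arrays, -0.37 to 0.10 in mutant normal skin and 0.04 to 0.22 in wild type, with a correlation of 0.76 with the members. Single genes ranged from -0.63 for Prf1 to 0.78 for Klrd1, with Cd4 at -0.29, Cd3e at -0.12 and Nkg7 at 0.40. The 6 of 7 dendritic and Langerhans cell markers, led by Cd207 and Itgax, had -0.22 and 0.48, -0.52 to 0.11, and 0.02 to 0.27, with a correlation of 0.91. Each single gene was lower, from 0.06 for Zbtb46 to 0.76 for H2-DMb2, with Cd207 at 0.64 and Itgax at 0.52. Zbtb46 and H2-DMb2 were not well above background on any Mutant097 array. Macrophage markers, 8 of 9 tested and led by Csf1r and Mrc1, were at 0.66 and 0.68 in wild type against -0.42 to -0.01 in mutant normal skin, the arrays on which B2m, Tapbp and Psmb10 were lower; their correlation with the members was 0.58. Mast cell markers, led by Mcpt4 and Cpa3, stood at 1.30 in Mutant113 hair loss and -0.53 to 0.37 elsewhere, with a correlation of 0.39. Their median difference was 0.99 within Mutant113, with 5 of 5 above 0, and 0.05 within Mutant097, with 3 above 0 and 2 below. In hair loss against wild type 1 of 5, Kit, passed the limma test, against 1.42% of all probes. Kit correlated at -0.15 with the members' mean, and the others from 0.34 for Tpsb2 to 0.61 for Cpa3. Hair shaft and inner root sheath genes were at 3.93 and 2.53 in hair loss, 0.63 to 3.18 in mutant normal skin, against -6.18 and -7.64 in wild type, with a correlation of -0.40. Of these, 10 of 11 passed in normal skin against wild type, against 0.694% of all probes. In hair loss against wild type 10 of 11 passed, against 1.42%. All of these calls were lost in limma with 1 mean per title number and group and without wild type A. Only 4 of 11 were well above background on all 8 arrays. Krt33a, Krt33b and Krt34 were so on neither wild type array and passed the filter through mutant arrays alone. Krt35, Krt25, Krt27 and Krt86 were so on 1 wild type array, so that wild type levels of this list lie partly near background. For this list the median difference of hair loss from normal skin was 3.48 within Mutant097, with 11 of 11 above 0. Within Mutant113 it was -0.31, with 10 of 11 below 0. The median difference between the numbers in the hair loss effect was -3.80.

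For skeletal muscle markers the median difference of hair loss from normal skin was -2.52 within Mutant113, with 0 of 6 past the limma test and 6 at an unadjusted p under 0.05, and -1.67 in hair loss against mutant normal skin, with 0 of 6 and 5. In hair loss against wild type 1 of 6 passed, against 1.42% of all probes. Fibroblast markers had a median of -0.96 in mutant normal skin against wild type, with 0 of 5 past the test and 2 at an unadjusted p under 0.05. For Mutant113 normal skin alone 2 of 5 passed, against 3.26% of all probes. In hair loss against normal skin their median was 0.36 within Mutant113 and -0.45 within Mutant097. Melanocyte markers had a median of 2.37 in mutant normal skin against wild type, with 0 of 5 past the test and 4 at an unadjusted p under 0.05. Of the adipocyte markers, 1 of 5 passed in Mutant113 normal skin against wild type, against the same 3.26% of all probes. The correlations with the members' mean were 0.66 for 6 endothelial markers, 0.34 for 2 of 4 B cell markers, 0.07 for 5 of 6 interfollicular keratinocyte markers, 0.06 for 5 of 6 fibroblast markers, -0.08 for 5 adipocyte markers, -0.10 for 6 skeletal muscle markers and -0.70 for 5 melanocyte markers. The part of these and the preceding markers in the members' values was not tested.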

How the data were processed

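The deposited scanner files hold 1 intensity per spot (gProcessedSignal), background-corrected by Agilent Feature Extraction 11.5.1.1 per the file headers. The deposited series matrix, on a log2 scale, differs from log2 of that intensity by 1 constant per array. Control and outlier-flagged spots were left out and spots of a probe averaged. Log2 intensity was scaled by the 75th percentile of each array. Probes well above background on 2 or more arrays were tested with limma 3.58.1 in R 4.3.3, with 3 group means (5 residual degrees of freedom) and, within title numbers, with 5 means (3 residual degrees), Benjamini-Hochberg adjusted over 30417 probes, at a threshold of 0.05. The code was tested on simulated data. Genes were named from RefSeq accessions, and the brightest probe represented a gene. Members and lists were chosen with earlier results of these data known. Named were all members, the 3 brightest genes and any call of each pathway list, the 2 brightest of each marker list, and the 10 nearest genes. Alternatives covered background, scaling, filter, probe choice, blocks and each array left out.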

Additional observations from a re-analysis of the deposited data

Results flagged for a closer look

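Of 10 member genes examined in the 4 mutant normal skin arrays, 2 had an array standing apart from the other three by more than Dixon's 95% critical value, which chance does in about 5% of groups. Tap2 was low in Mutant097 B, at 3.82 against 4.31 to 4.36, a gap of 0.896 of the range. Tapbp was high in Mutant097 A, at 3.60 against 3.24 to 3.29, a gap of 0.868 of the range.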

How the results depend on the processing

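In 19 alternatives, 0 of 10 members were called in each of the 115 counts over comparisons and settings, and the lowest adjusted p in limma was 0.721 for hair loss against normal skin, 0.199 for normal skin against wild type, 0.117 for hair loss against wild type, 0.434 and 0.806 within Mutant097 and Mutant113, and 0.394 for their difference. With the title number as a replicate block, 9 of 10 members lay above 0 in hair loss against normal skin, and the lowest adjusted p was 0.782; the numbers are not stated to pair samples, and the correlation of the Mutant113 minus Mutant097 difference between hair loss and normal skin was 0.130 over probes. Leaving out 1 array gave medians of -0.22 to 0.41 for hair loss against normal skin and -0.44 to 0.21 for hair loss against wild type.

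Directions near 0 turned, none of them called; beyond what the alternatives themselves change, the cause was not tested. In hair loss against normal skin, leaving out 1 array gave -0.43 to 0.39 for H2-D1, -0.40 to 0.47 for B2m, -0.15 to 0.34 for Tap2, -0.055 to 0.088 for Tapbp, -0.16 to 0.24 for Psmb10, -0.30 to 0.36 for Nlrc5, -0.025 to 0.42 for H2-K1, -0.31 to 0.52 for Tap1, -0.17 to 0.43 for Psmb8 and -0.27 to 0.49 for Psmb9. Tapbp was -0.0080 with the percentile over probes detected on all arrays, -0.010 with normexp, -0.033 with quantile normalization and -0.071 with the slide row as a block. H2-D1 was 0.045 with array medians and 0.013 with normexp, Nlrc5 -0.00855 with normexp and Psmb10 -0.011 with quantile normalization.

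In normal skin against wild type, leaving out 1 array gave -0.29 to 0.23 for H2-K1, -0.34 to 0.24 for Tap1, -0.34 to 0.27 for Nlrc5 and -0.30 to 0.036 for Psmb9. Array medians gave H2-K1 0.13, Tap1 0.11, Psmb9 0.027 and Nlrc5 0.12; normexp gave H2-K1 0.12 and Nlrc5 0.12; the slide row gave H2-K1 0.026 and Tap1 0.011. In hair loss against wild type, H2-K1 ran from -0.10 to 0.43 with 1 array left out.

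Within Mutant097, leaving out 1 array gave -0.18 to 0.24 for H2-K1, -0.25 to 0.23 for Tap2, -0.31 to 0.052 for Tapbp, -0.34 to 0.0071 for Psmb9 and -0.17 to 0.052 for Psmb10; array medians gave Tap2 0.000470 and quantile normalization H2-K1 -0.16. For the difference between numbers, Tap2 ran from -0.031 to 0.45 with 1 array left out, and H2-K1 was -0.046 as the mean of its probes. Within Mutant113 no direction turned in these settings. Over the alternatives, calls among all probes ran from 0 to 856 for normal skin against wild type (211 in the report's setting), 0 to 1332 for hair loss against wild type (432), 0 to 461 within Mutant097 (191), 0 to 218 within Mutant113 (1) and 0 to 287 for the difference between numbers (0), and 0 to 11 in hair loss against normal skin (0). Array medians put the median of all probes at 0.12 for normal skin against wild type, 0.16 for hair loss against wild type and 0.15 within Mutant113. With 2 hair loss and 2 wild type arrays, the number of arrays limits the precision. Normexp used the median signal and was chosen, like the title letter comparison, after seeing the data.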
